A study of Mus musculus with 3 samples.

Results

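Ier3 and Klf10 expressing progenitors were the cultured neural progenitor cells in which at least 5 of 8 genes, Ier3, Klf10, Adm, Nptx2, Tgfb1i1, Mical2, Plk2 and Tmem158, were detected with 1 or more unique molecular identifiers (UMIs, each counting 1 captured RNA molecule). By this rule 1110 of 17920 cells were members, 379 of 6091 in the control, 453 of 5531 after bulk electroporation and 278 of 6298 after localized electroporation. The members were thus chosen by the detection of these genes in the same cells that are described here. A barcode counted as a cell from 3000 UMIs and 500 genes on, if mitochondrial UMIs were no more than 20% of its total. The progenitors came from postnatal day 1 mice of a strain that was not named and were grown as neurospheres with 20 ng/mL of the growth factor EGF. They were plated at 50000 cells for 16 h. Poly-D-lysine was named for the plating, without a statement for the control itself. Bulk electroporation applied the field to the whole dish at once (Lonza 4D Nucleofector Y unit, program DS137), and localized electroporation was done on cells plated in a localized electroporation device (20 V, 400 pulses). The surface and handling of the control were not described, so the device and the pulses cannot be told apart. RNA was read 4 h after treatment by droplet 3' single-cell sequencing, with 10000 cells loaded and 1 library for each condition. The design therefore has no replicate, and nothing below carries a p-value. Every interval is a 95% interval for counting error only, exact Poisson for levels, exact Clopper-Pearson for shares and a gamma (Fay-Feuer) interval for depth-weighted values.

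The 8 genes chose the members, so their high values in members are a description of the rule. Several of them are early response genes, which cells transcribe within minutes to hours of a growth factor, serum, stress or adhesion signal. In progenitors grown in EGF, the receptor signals through the RAS and ERK kinases, and ERK in turn drives genes whose products dampen the same pathway, among them the Sprouty proteins and the ERK phosphatase DUSP6. Ier3 is an early response gene linked to cell survival, and Klf10 encodes a zinc finger transcription factor first known as an early target of TGF-beta. Plk2 encodes a polo-like kinase that is induced early by growth signals and by p53. Adm encodes the secreted peptide adrenomedullin, and Nptx2 a secreted pentraxin that binds glutamate receptors at synapses. Tgfb1i1 encodes Hic-5, a LIM adaptor of focal adhesions, and Mical2 an enzyme that oxidises actin. Tmem158 is a membrane protein gene that is induced by activated RAS.

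The promoters of the genes that define the members are shown because early response factors act at such sequences. RefSeq promoters (mouse build GRCm38.p6, 250 bases before to 50 after the start of transcription) were found for 4 of the 8 genes, and the 3 that hold a match to a searched motif are printed 5' to 3', with matched bases in capitals.
Ier3 promoter, chr17:35821463-35821762, plus strand: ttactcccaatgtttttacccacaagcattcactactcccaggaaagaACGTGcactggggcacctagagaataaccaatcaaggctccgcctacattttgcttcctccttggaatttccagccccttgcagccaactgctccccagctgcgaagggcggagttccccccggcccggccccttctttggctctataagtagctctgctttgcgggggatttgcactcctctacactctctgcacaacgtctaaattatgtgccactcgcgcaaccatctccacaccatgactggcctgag
Mical2 promoter, chr7:112225586-112225885, plus strand: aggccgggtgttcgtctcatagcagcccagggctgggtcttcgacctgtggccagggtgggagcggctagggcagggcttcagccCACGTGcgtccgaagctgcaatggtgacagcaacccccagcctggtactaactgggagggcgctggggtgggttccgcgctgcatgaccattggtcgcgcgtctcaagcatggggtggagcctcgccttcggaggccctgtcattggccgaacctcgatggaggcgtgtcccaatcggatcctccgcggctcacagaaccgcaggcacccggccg
Plk2 promoter, chr13:110394794-110395093, plus strand: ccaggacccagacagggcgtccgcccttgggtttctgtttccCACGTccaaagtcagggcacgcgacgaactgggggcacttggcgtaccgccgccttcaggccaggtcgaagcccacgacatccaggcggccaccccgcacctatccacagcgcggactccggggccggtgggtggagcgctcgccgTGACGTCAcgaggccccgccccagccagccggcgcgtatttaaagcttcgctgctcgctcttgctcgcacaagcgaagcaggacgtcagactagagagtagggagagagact
On both strands, 6 motifs were searched, with the share of all 32851 promoters of the same length holding each: the AP-1 site TGANTCA (7.81%), the cyclic AMP response element TGACGTCA (1.79%), the CArG box read by SRF (1.63%), the TEAD site CATTCC (14.7%), the hypoxia response core ACGTG (19.6%) and the ETS core CCGGAAGT (3.89%). Plk2 held TGACGTCA at bases 189 to 196 of its window, and a hypoxia core on the minus strand at bases 43 to 47. Ier3 held a hypoxia core at bases 49 to 53. Mical2 held overlapping hypoxia cores, at bases 86 to 90 on the minus strand and at bases 87 to 91 on the plus strand. The Adm window held none of the 6. No motif was held by all 4 promoters, and the matches describe letters in these windows only.

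The 8 genes lie on 6 chromosomes of GRCm38 (GENCODE vM21), and all are protein coding. Adm (7:110627661-110629820), Mical2 (7:112225856-112413106) and Tgfb1i1 (7:128246812-128255699) lie on the plus strand of chromosome 7. Ier3 (17:35821684-35822923), Plk2 (13:110395046-110400844) and Nptx2 (5:144545902-144557478) are also on the plus strand, and Klf10 (15:38291463-38300706) and Tmem158 (9:123259053-123260764) are on the minus strand. The values are counts over whole genes, so no exon, intron or UTR can be told apart.

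Depth differed between the libraries and enters the rule directly, since a deeper cell shows more genes. Cells held a median of 9542 UMIs in the control, 11644 after bulk and 10980.5 after localized electroporation, with median mitochondrial shares of 3.42% to 4.12%. UMIs outside cells made up 17.0% of the control file and 9.62% and 9.10% of the bulk and localized files. Between 6 and 9 cell barcodes were shared by any pair of libraries. Members were deeper than the other cells of their library in all 3: medians were 13448 against 9340 UMIs in the control, 17930 against 11280 in bulk and 16406 against 10802.5 in localized. Members and other cells had similar mitochondrial shares, 3.58% against 3.42%, 3.83% against 4.14% and 3.40% against 3.42% in the same order. Levels were therefore compared with other cells of like depth, weighted within narrow bins of UMIs, and given as CPM, the UMIs of a gene scaled to 1000000 UMIs in all. The match covered 378, 441 and 273 members.

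Members were most frequent after bulk electroporation by plain count and most frequent in the control at like depth. The plain share was 6.22% in the control (interval 5.63 to 6.86), against 8.19% after bulk electroporation (7.48 to 8.94) and 4.41% after localized electroporation (3.92 to 4.95). Among cells of 6000 to 12000 UMIs, the share was 4.27% (3.61 to 5.01) in the control, then 3.32% (2.62 to 4.13) in bulk, then 1.94% (1.49 to 2.48) in localized. Among cells of 12000 to 25000 UMIs they made up 12.2% (10.6 to 13.9), 10.1% (8.89 to 11.5) and 7.002% (6.02 to 8.09). The localized library was lowest in both ranges, and the intervals of control and bulk overlapped in both. Above 25000 UMIs, 36 of 68 control cells, 162 of 533 bulk cells and 44 of 173 localized cells were members, and the control interval (40.4% to 65.2%) lay above those of bulk (26.5% to 34.5%) and localized (19.1% to 32.6%). When each library was weighted to the same distribution of UMIs, a calculation added after the data were seen, the shares became 8.83% (7.65 to 10.7), 6.01% (5.41 to 6.67) and 4.38% (3.83 to 5.04). At a fixed depth of 6000 UMIs per cell, reached by random thinning, the shares were 1.37% (1.07 to 1.73), 0.873% (0.633 to 1.17) and 0.517% (0.349 to 0.737). Shallower cells were left out of that count, 1053 of the control, 608 of bulk and 493 of localized. The order of bulk and control thus turned with depth, and localized electroporation was lowest in every version.

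**Figure D1:**
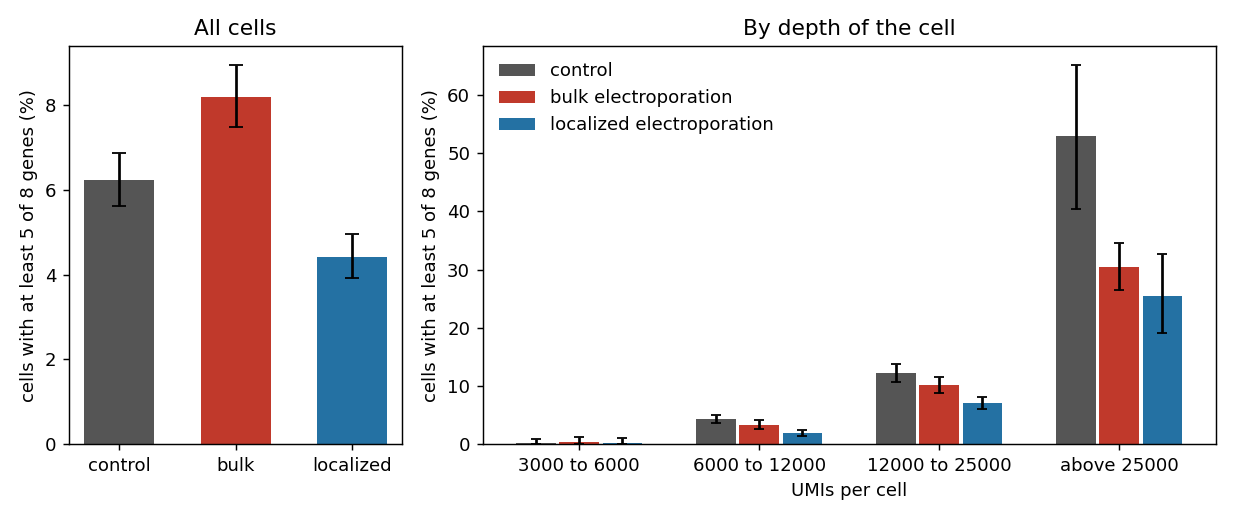
Share of cells with at least 5 of the 8 genes (vertical axes, percent of cells) in the control, bulk and localized libraries, over all cells on the left and in 4 ranges of UMIs per cell on the right. Bars are shares and error lines are exact 95% binomial intervals. Bulk is highest over all cells at 8.19%, whereas the control is highest in each range from 6000 UMIs on.

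The number of the 8 genes per cell had no gap at the threshold. In the control, 504 cells had 4 genes detected, 269 had 5, 82 had 6, 26 had 7 and 2 had all 8. In bulk the counts were 565, 277, 126, 43 and 7, and in localized 458, 187, 73, 17 and 1. After thinning every cell to 3000 UMIs, the summed level of the 8 genes in control cells was 595 CPM (557 to 635) just outside the threshold, with 4 genes, and 729 CPM (671 to 790) just inside it, with 5. The corresponding sums were 492 and 575 CPM in bulk and 482 and 583 CPM in localized cells. The rule thus cuts a graded count of detected genes. Both values come from the genes of the rule, so whether members form a group of their own was not tested. The rule allows any set of 5 or more of the 8 genes, and 85, 84 and 83 different combinations occurred in the 3 libraries. The most frequent combination, Ier3, Klf10, Mical2, Plk2 and Tmem158, covered only 20 control members and 13 localized members. In bulk it was the same set with Adm added, in 20 members.

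Ier3 and Klf10, the early response genes the cells are named for, were each detected in about the same share of members in all 3 libraries. The rule raises these shares in every library, so their likeness is part of the description of the rule. Ier3 stood at 82.2 CPM (74.9 to 90.0) in control members, 55.7 (51.5 to 60.2) in bulk members and 71.0 (63.9 to 78.6) in localized members, against 22.5, 17.1 and 19.5 CPM in other cells of like depth. It was detected in 69.7%, 67.8% and 71.2% of members. Klf10 stood at 109 CPM (101 to 118), 58.7 (54.4 to 63.3) and 79.1 (71.6 to 87.1), against 30.4, 21.1 and 23.95 CPM. It was detected in 77.6%, 75.9% and 75.9% of members. For both genes the control was the highest member level and bulk the lowest, with intervals that did not overlap for bulk against either of the other libraries. Bulk members were also the deepest, so that 1 UMI adds least to a level there, and the part of depth in this order was not tested. Plk2 differed least from other cells in the control and bulk, at 99.9, 92.1 and 84.6 CPM in members against 51.6, 64.4 and 38.4 CPM. Its bulk ratio, 0.57 on the log2 scale, was the lowest of the 24 ratios of the 8 genes in 3 libraries.

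The genes of secreted products followed different orders across the libraries. Adm stood at 66.3 CPM (59.7 to 73.3) in control members, 50.3 (46.3 to 54.6) in bulk and 42.0 (36.6 to 48.0) in localized, against 22.3, 18.8 and 9.32 CPM in other cells. The localized library was lowest both among members and among other cells. It was detected in 59.9%, 71.1% and 51.4% of members. Nptx2 stood at 45.05 CPM (39.7 to 50.9), 24.3 (21.5 to 27.3) and 37.8 (32.7 to 43.5), against 11.97, 5.04 and 10.5 CPM, so that bulk was lowest for this gene. Its bulk ratio of 2.16 was the highest of the 24 ratios, with a low level in other bulk cells.

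The adhesion, actin and membrane genes were highest in control members. Mical2 stood at 86.1 CPM (78.6 to 94.0) in control members, at 50.2 CPM (46.1 to 54.4) after bulk and at 60.7 CPM (54.2 to 67.8) after localized electroporation, against 22.5, 13.7 and 13.6 CPM in other cells. Tgfb1i1 stood at 55.6 CPM (49.6 to 62.0), 35.6 (32.2 to 39.2) and 42.8 (37.4 to 48.8), against 23.3, 14.9 and 18.0 CPM. Tmem158 stood at 125 CPM (116 to 134), 72.8 (68.0 to 77.9) and 98.9 (90.5 to 108), against 54.6, 27.1 and 45.7 CPM. For these 3 genes, as for Ier3, Klf10 and Nptx2, the order of member levels was control, then localized, then bulk. All 6 are genes of the rule. Median member depth ran the other way, at 13448 UMIs in the control, 16406 in localized and 17930 in bulk. The part of depth and of the rule in this order was not tested.

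The rule itself raises each of these values, so each gene was also read where the rule had not used it, in cells with at least 4 of the other 7 genes (a comparison added after the data were seen). All 24 ratios remained above 0 there and were smaller than in members. Mical2 stood highest, at 1.12, 0.96 and 1.21 in control, bulk and localized. Klf10 stood at 1.07, 0.75 and 1.01, Ier3 at 0.97, 0.78 and 0.93, Nptx2 at 0.75, 0.91 and 0.82, and Adm at 0.67, 0.67 and 0.99. Tgfb1i1 was lowest in the control and localized, at 0.36, 0.38 and 0.19 in the 3 libraries, and Plk2 was lowest in bulk, at 0.39, 0.30 and 0.57. A second reading placed each UMI at random into 1 of 2 equal parts, chose members on the first part (68, 115 and 48 cells) and read levels in the second. In it Klf10 stood at 1.67, 1.14 and 1.46, Mical2 at 1.29, 1.52 and 1.93, and Ier3 at 1.18, 1.21 and 1.40. In bulk, Tgfb1i1 and Plk2 stood at only 0.12 and 0.19 in the unused part, and the member interval of each (16.1 to 30.9 and 63.0 to 89.6 CPM) held the level of the other cells (20.8 and 65.9 CPM). The same held for Tgfb1i1 in localized, at 14.6 to 46.9 CPM against 19.3 CPM.

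**Figure D2:**
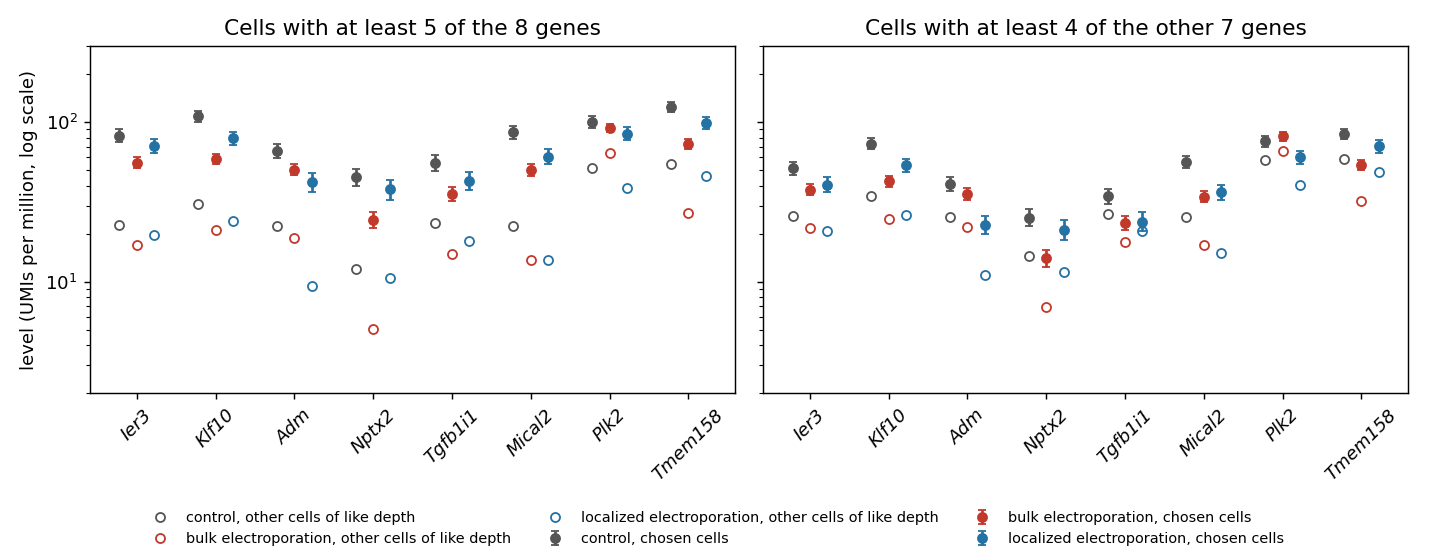
Level of each of the 8 genes in CPM (log axis) in chosen cells (filled points, bars are exact 95% Poisson intervals) and in other cells of like depth (open points), for 3 libraries. On the left the cells are members, with at least 5 of the 8 genes, and on the right they are cells with at least 4 of the other 7 genes, where the gaps are smaller and Tgfb1i1 in the localized library nearly meets its other cells.

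Free RNA in the droplets was read in barcodes of 10 to 100 UMIs. Klf10 stood there at 59.8, 29.2 and 23.5 CPM, against 40.5, 30.2 and 30.2 CPM over all cells, and Plk2 at 70.5, 50.4 and 32.5 CPM against 59.0, 68.7 and 44.3 CPM. The control thus had more Klf10 in its nearly empty barcodes than in its cells. Mical2 stood at 38.1 CPM in the control barcodes against 28.8 CPM in control cells, and Tmem158 at 36.7 against 60.0 CPM. No cell class known to lack these genes was at hand, so the share of detections that free RNA gives was not tested. Among detected cells, Klf10 reached at most 14, 9 and 11 UMIs in a single cell, and Ier3 at most 16, 13 and 10.

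Over all cells of each library, the localized library had lower levels than the control for all 8 genes, with log2 ratios from -0.23 for Tmem158 to -0.89 for Adm. Bulk was below the control for 6 of the 8, from -0.19 for Ier3 to -0.67 for Nptx2. The other two, Adm and Plk2, had ratios of 0.03 and 0.22 in bulk.

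Outside the 8 genes, no gene was at least 2-fold different between members and other cells of like depth in all 3 libraries. A gene counted as tested when it reached 20 CPM in either group, and the ratio was taken on log2(CPM + 1). In the control, 6 of 5728 tested genes were at least 2-fold higher in members (0.105%) and 4 were at least 2-fold lower (0.0698%). In bulk the counts were 3 of 5939 (0.0505%) and 2 (0.0337%), and in localized 6 of 5988 (0.1%) and 15 (0.251%). Among 5382 genes tested in all 3 libraries, 0 were past 2-fold in each (0% in either direction). Ratios above 0 in all 3 libraries were held by 1505 of these genes (28%), and ratios below 0 by 939 (17.4%). Members therefore differed from their neighbours mostly by moderate ratios. The genes named below are those with the strongest ratio in their weakest library.

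Trib1, a pseudokinase gene that acts on protein degradation and MAP kinase signalling, headed the higher genes, at 23.8 CPM (20.0 to 28.2) in control members, 21.6 (18.8 to 24.6) in bulk and 24.9 (20.7 to 29.8) in localized, against 11.7, 9.34 and 9.498 CPM. Its log2 ratios were 0.96, 1.13 and 1.31. Rasl11a, a RAS-like small GTPase gene, stood at 113, 68.1 and 167 CPM in members and 47.5, 35.4 and 70.7 CPM in other cells, with ratios of 1.23, 0.93 and 1.23. Both genes were past 2-fold in 2 of the 3 libraries.

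Feedback genes of the ERK pathway, Dusp6, Spry1 and Spry4, were among the 15 higher genes. Spry4 stood at 72.4 CPM (65.6 to 79.8) in control members, 60.4 (55.8 to 65.3) in bulk and 58.3 (51.7 to 65.5) in localized, against 35.0, 34.2 and 29.2 CPM in other cells. Dusp6 stood at 58.3 CPM (52.2 to 64.9), 50.5 (46.3 to 55.0) and 43.1 (37.4 to 49.3), against 30.5, 26.5 and 19.0 CPM. Spry1 stood at 62.7, 54.7 and 45.6 CPM against 34.9, 29.0 and 24.3 CPM. For all 3 genes the member level lay above that of other cells in every library, and the intervals of the 2 groups did not overlap. Their ratios ran from 0.80 to 1.14.

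Of 20 growth factor and ERK feedback genes listed, 12 were tested in each library. In the control, 12 of 12 had ratios above 0, beside 59% of all tested genes, and the median was 0.55 beside 0.03 over all tested genes. In bulk 10 of 12 were above 0, beside 54%, with a median of 0.31 beside 0.01. In localized 11 of 12 were above 0, beside 53.4%, with a median of 0.58 beside 0.01. Ccnd1, the cyclin D1 gene and an end point of mitogen signalling, had the highest level of the list: 1223 CPM in control members against 735 CPM, 1344 against 943 CPM in bulk and 984 against 606 CPM in localized. The whole list summed to 2132 against 1371 CPM in the control, 2166 against 1622 in bulk and 1789 against 1159 in localized. Ccnd1 thus made up most of each sum. Phlda1 had ratios of 0.74, 0.33 and 0.73, and Hbegf, which encodes a ligand of the EGF receptor, had 0.70, -0.12 and 0.99. Of the ETS factor genes that ERK also induces, Etv1 and Etv4 had ratios between -0.11 and 0.18, and Etv5 had 0.38, 0.28 and 0.47. Without cells above 25000 UMIs, the medians were 0.55, 0.35 and 0.59.

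The summed level of this list was higher in cells with more of the 8 genes detected, after all cells were thinned to 3000 UMIs. Most of the sum in members is Ccnd1, and whether the other genes of the list rise along this range was not tested. In the control its sum was 764 CPM (739 to 790) in cells with 0 of the 8 genes, 1219 with 1 or 2, 1783 with 3, 1940 with 4, 2107 with 5 and 2324 (2163 to 2495) with 6 to 8. In bulk the sum ran from 1047 CPM with 0 genes to 2164 with 4 and 2186 (2061 to 2315) with 6 to 8. In localized it ran from 809 CPM with 0 genes to 1662 with 4 and 1912 (1752 to 2083) with 6 to 8. Most of the difference therefore lay below the threshold, and in bulk the cells with 4, 5 and 6 to 8 genes had overlapping intervals. The median depth before thinning moved the same way, from 6836.5 to 13392 UMIs between 0 and 5 genes in the control, and its part in this relation was not tested. Other lists moved along the same range in the control: from 0 to 6 to 8 genes, focal adhesion and integrin genes went from 2061 to 4145 CPM, annexin and S100 genes from 658 to 1339, NF-kB feedback genes from 119 to 255 and NRF2 targets from 3121 to 5161. The relation is therefore not particular to the ERK feedback list.

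**Figure D3:**
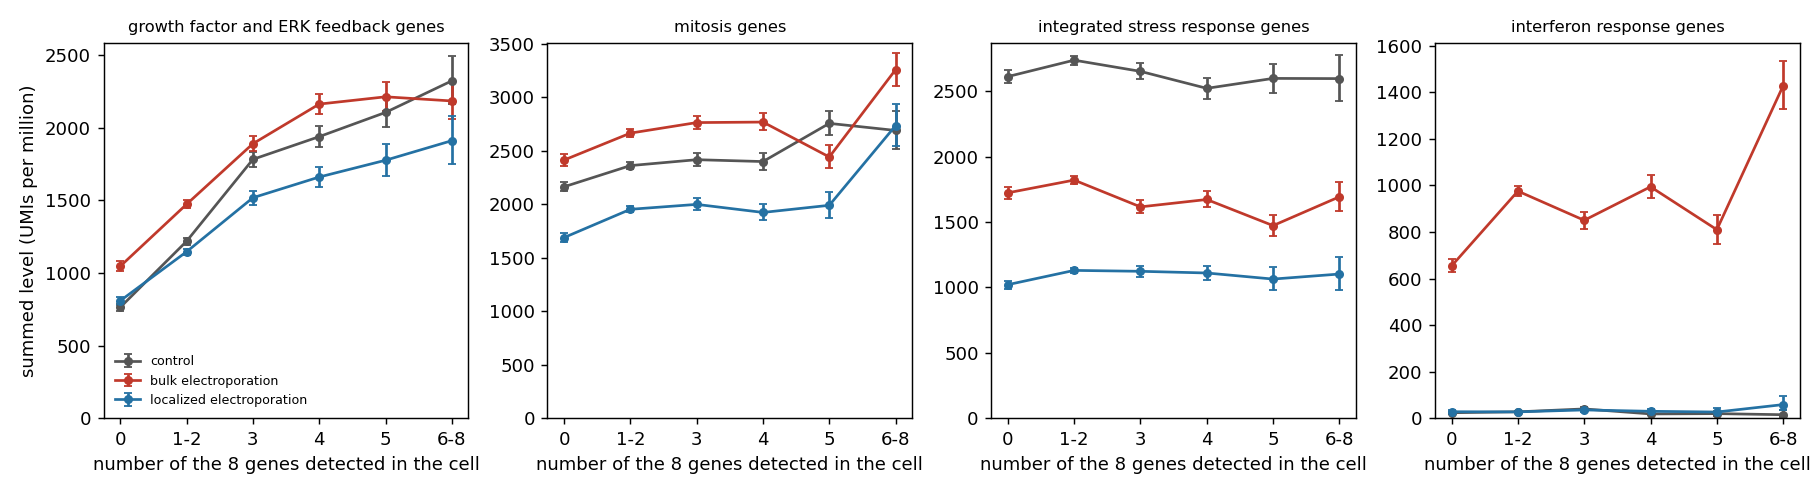
Summed level in CPM (vertical axes, from 0) of 4 gene lists by the number of the 8 genes detected per cell (horizontal axes), with every cell thinned to 3000 UMIs and 1 line per library. Error lines are exact 95% Poisson intervals. The growth factor and ERK feedback list climbs from 764, 1047 and 809 CPM at 0 genes to 2324, 2186 and 1912 CPM at 6 to 8 in the control, bulk and localized libraries. In members Ccnd1 makes up most of the sum of this list. The interferon list is high in bulk alone of the 3 libraries, where it moves up and down between 654 CPM with 0 genes, 994 CPM with 4, 810 CPM with 5 and 1428 CPM with 6 to 8.

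The other genes of the 15 had varied functions. Cebpd, an early response transcription factor, stood at 61.8, 51.1 and 42.7 CPM against 32.3, 27.9 and 23.1 CPM. Rfx4, a transcription factor of neural progenitors, had a high level at 333, 212 and 309 CPM against 178, 111 and 185 CPM. Akap12, a scaffold that anchors protein kinases A and C, stood at 238, 184 and 274 CPM against 122, 123 and 155 CPM. The chromatin gene Dpf3 had ratios of 0.79, 0.82 and 0.84, and the potassium channel gene Kcna2 had 0.95, 0.86 and 0.77. Coro2b, a coronin that binds actin, had 0.74, 0.72 and 0.73, the most even ratios of the 15 higher genes. The mitochondrial carrier gene Slc25a25 had 0.79, 0.61 and 0.94, Swap70 had 0.63, 0.61 and 0.70, Iffo2 had 0.96, 0.62 and 0.77 and Rflna, a regulator of filamin, had 0.66, 0.91 and 0.59.

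Genes lower in members included transcription factors of neural differentiation. Sox21 stood at 34.8 CPM (30.1 to 40.01) in control members, 79.5 (74.2 to 85.1) in bulk and 65.3 (58.3 to 72.9) in localized, against 72.7, 137 and 110 CPM. Sox4, a factor of early neuronal and glial differentiation, stood at 342, 375 and 297 CPM against 563, 524 and 521 CPM. Pou3f2 had ratios of -0.70, -0.67 and -0.41, and Tox3 had -0.84, -0.68 and -0.72. The antiproliferative gene Btg2 had -0.78, -0.64 and -0.83. Its levels were 39.7, 67.7 and 72.8 CPM in members against 69.2, 106 and 130 CPM. Ddit4, an inhibitor of the growth kinase complex mTORC1, had -0.58, -0.83 and -0.63. The cohesin acetyltransferase gene Esco2 had -0.73, -0.44 and -0.49, and the neuronal genes Enc1 and Mapt had ratios between -0.39 and -0.67. The remaining lower genes, Igsf9b, Arl4a, Zfp608, Kif21a, Rgma and Myo10, had ratios from -0.43 to -1.04. None of the 15 lower genes was past 2-fold in more than 1 library.

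**Figure D4:**
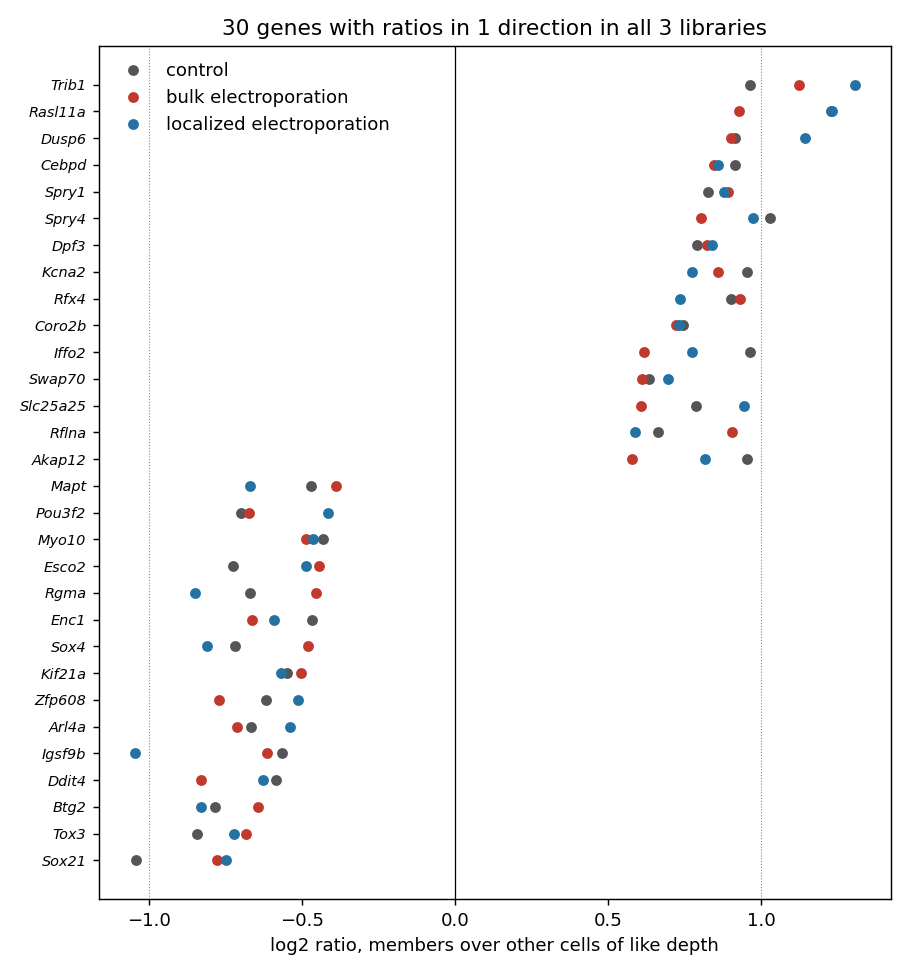
Log2 ratio of members over other cells of like depth for the 15 genes with the highest and the 15 with the lowest ratio that held in all 3 libraries, with 1 point per library. Trib1 and Rasl11a lead the higher genes, and Sox21 and Tox3 lie at the low end, with few points past 1 or -1.

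The label of progenitors was checked against markers. All 14 neural stem or progenitor markers were detected in members of each library, for which 1 UMI over all members is enough. So were all 11 astrocyte markers, and such detection therefore does not set cell types apart. Of the 14, 9 in the control, 10 in bulk and 11 in localized reached 20 CPM in members or other cells. The summed level of the 14 was close to that of other cells: 7854 against 8033 CPM in the control and 8737 against 8862 CPM in bulk. Within the list the members moved apart. Nes, an intermediate filament gene of neural progenitors, was at 521 CPM (502 to 540) in control members against 340, at 587 (572 to 602) in bulk against 553 and at 376 (359 to 393) in localized against 309. Sox2 was lower in members of each library, at 220, 297 and 309 CPM against 317, 410 and 379 CPM, as was Sox9, with ratios of -0.54, -0.31 and -0.45. Egfr, the receptor for the EGF in the medium, had ratios of 0.25, 0.37 and 0.18.

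The Notch target Hes5 was lower in members of the control and localized libraries. Hes5 stood at 41.5 CPM (36.4 to 47.2) in control members against 94.6 CPM, and at 80.0 CPM (72.2 to 88.3) in localized members against 187 CPM. In bulk it stood at 20.2 CPM (17.6 to 23.1) against 23.4 CPM, with overlapping intervals. After thinning to 3000 UMIs, Hes5 was detected in 6.33% of control members against 13.8% of other cells of like depth, in 14.4% against 27.7% in localized and in 4.86% against 5.73% in bulk. The ligand gene Dll1 had ratios of -1.06, -0.78 and -0.96 at 5.12 to 12.6 CPM in members. Jag1, another Notch ligand gene, had ratios of 0.59, 0.78 and 1.04, at 24.7, 12.5 and 17.3 CPM in members. The whole Notch and Id list had medians of -0.12, 0.10 and -0.17.

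Markers of immune, vascular and blood cells were low or at 0 in members. Of 9 microglia or macrophage markers 8, 7 and 9 were at 0 in control, bulk and localized members, and their sums were 0.177, 0.192 and 0 CPM. Aif1, C1qa, C1qb, Csf1r, Ptprc and Tyrobp were at 0 in all 3. Mural or fibroblast markers summed to 0.883, 0.671 and 1.86 CPM and erythroid markers to 0.530, 0.0958 and 0 CPM, beside 0.704, 0.729 and 1.49 CPM and 0.255, 0.198 and 0.0806 CPM in other cells. Endothelial markers summed to 6.54, 4.69 and 4.74 CPM in members and were lower in other cells, at 2.37, 3.40 and 3.75 CPM. Most of that sum was Flt1, at 4.95, 3.54 and 2.68 CPM in members against 1.81, 2.55 and 2.58 CPM, while Cldn5 was at 0 in members of all 3 libraries and Pecam1 at no more than 0.177 CPM. Ependymal markers summed to 8.13, 13.2 and 9.28 CPM. Astrocyte markers summed to 512, 550 and 791 CPM in members and to 528, 580 and 857 CPM in other cells, and neuron markers to 498, 528 and 448 CPM against 472, 528 and 432 CPM. Oligodendrocyte markers, at 37.5, 35.7 and 80.2 CPM in members, were lower than in other cells, at 47.1, 48.9 and 165 CPM, with Mog and Ermn at 0 in members of each library.

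Oligodendrocyte precursor genes divided. In localized members 4 of 9 tested markers were at least 2-fold lower (0.251% of all tested genes), namely Pdgfra, Sox10, Lhfpl3 and Bcas1, and the list median was -0.52. Pdgfra, the platelet-derived growth factor receptor of these precursors, stood at 7.42 CPM (5.20 to 10.3) against 22.2 CPM, and Sox10 at 8.45 CPM (6.06 to 11.5) against 34.5 CPM. In the control and bulk both genes were at or under 6.03 CPM in either group. Lhfpl3 was lower in each library, at 11.5, 7.76 and 11.1 CPM against 26.6, 17.3 and 33.7 CPM. Olig1 and Olig2, which earlier progenitors also express, had ratios from 0.13 to 0.60, all above 0.

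Immediate early genes as a list had small ratios at like depth. Of 22 such genes, 12, 10 and 10 were tested, and 7, 5 and 6 had ratios above 0, beside 59%, 54% and 53.4% of all tested genes. The medians were 0.14, -0.04 and 0.07. Egr1, a zinc finger factor induced through ERK, had ratios of 0.49, 0.72 and 0.14, and Myc had 0.67, 0.44 and 0.44. Fos had 0.15, 0.11 and -0.28, Jund had -0.38, -0.30 and -0.41 and Atf3 had -0.66, -0.90 and -1.04. Fos was detected after thinning in 6.33%, 6.84% and 15.8% of members and in 7.22%, 5.25% and 15.7% of other cells of like depth. The localized shares stood above those of control and bulk, in members and in other cells alike. By number of the 8 genes, with every cell thinned to 3000 UMIs, the list sum went from 1039 CPM (1009 to 1069) with 0 genes to 1421 (1295 to 1556) with 6 to 8 in the control. In localized it went the other way, from 1421 CPM (1386 to 1457) to 1150 (1026 to 1285), and in bulk from 933 CPM (900 to 967) to 1045 (960 to 1136), with overlapping intervals.

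Adhesion and cytoskeleton genes beyond Mical2 and Tgfb1i1 showed small ratios. Focal adhesion and integrin genes were above 0 in 10 of 10, 8 of 12 and 11 of 13 tested genes, with medians of 0.14, 0.10 and 0.18. SRF and actin cytoskeleton genes were above 0 in 11 of 15, 7 of 14 and 14 of 14, with medians of 0.09, 0.02 and 0.17. Over all tested genes, 59%, 54% and 53.4% were above 0 in the same order of libraries. Myh9, a nonmuscle myosin gene, had ratios of 0.58, 0.29 and 0.61, and the smooth muscle actin gene Acta2 had 0.09, -0.05 and 0.34. Extracellular matrix genes had medians of 0.22, 0.09 and 0.13, with Tnc, the tenascin C gene, at 0.30, 0.30 and 0.35. TGF-beta response genes were too low for a list value, with 3, 3 and 1 of 18 tested.

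Cell cycle genes were lower in members at like depth. In the control 0 of 20 mitosis genes and 0 of 15 DNA replication genes were above 0, with medians of -0.20 and -0.17. In localized 0 of 20 and 5 of 17 were above 0, with medians of -0.46 and -0.09. In bulk 6 of 20 and 1 of 16 were above 0, with medians of -0.06 and -0.17. Over all tested genes, 59%, 54% and 53.4% were above 0 in control, bulk and localized. The mitosis value depends on depth. Against other cells not matched on UMIs its medians were 0.19, -0.02 and 0.08, and among bulk cells of at most 25000 UMIs it was -0.36. Cdk1, the kinase that drives entry into mitosis, stood at 173, 220 and 207 CPM in members against 223, 219 and 277 CPM.

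Integrated stress response, p53 target and interferon genes were lower in bulk members at like depth. There 0 of 20 integrated stress response genes were above 0 and the median was -0.43, beside 5 of 23 with a median of -0.10 in the control and 6 of 15 with -0.01 in localized. Over all tested genes, 54% were above 0 in bulk, 59% in the control and 53.4% in localized. Whether these libraries differ was not tested. The p53 targets in bulk had a median of -0.32, with 2 of 14 above 0. Interferon response genes were tested only in bulk, where 0 of 11 were above 0, with a median of -0.59. The list summed to 1318 CPM in members against 2263 CPM. The 12 bulk members without other cells of like depth are left out of these values. Rsad2 stood at 135 CPM in the matched bulk members against 280 CPM, and higher over all bulk members. In the control and localized this list summed to 24.02 and 35.2 CPM in members. These bulk values also turn with depth: against other cells not matched on UMIs the medians were 0.03 for the integrated stress response, 0.06 for p53 targets and 0.55 for interferon genes. Among bulk cells of at most 25000 UMIs, matched, the medians were -0.56, -0.23 and -0.83.

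Hypoxia and glycolysis genes had medians of 0.01, 0.03 and 0.13, NRF2 targets -0.00, -0.04 and 0.14, and heat shock chaperones -0.02, 0.13 and 0.07. Cholesterol synthesis genes had medians of -0.15, 0.12 and 0.07, with 0 of 19 above 0 in the control and 12 of 17 and 13 of 19 in bulk and localized. Over all tested genes, 59% were above 0 in the control and 54% and 53.4% in bulk and localized. Annexin and S100 genes had 0.20, 0.03 and 0.14, and transit amplifying progenitor markers had -0.20, -0.15 and -0.31 over 3 or 4 tested genes. The YAP and TEAD targets and the NF-kB feedback genes had 1 to 4 tested genes, with medians of 0.35, 0.28 and 0.31 and of 0.17, -0.09 and 0.37, and with sums of 216, 194 and 193 CPM and of 215, 282 and 235 CPM in members.

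**Figure D5:**
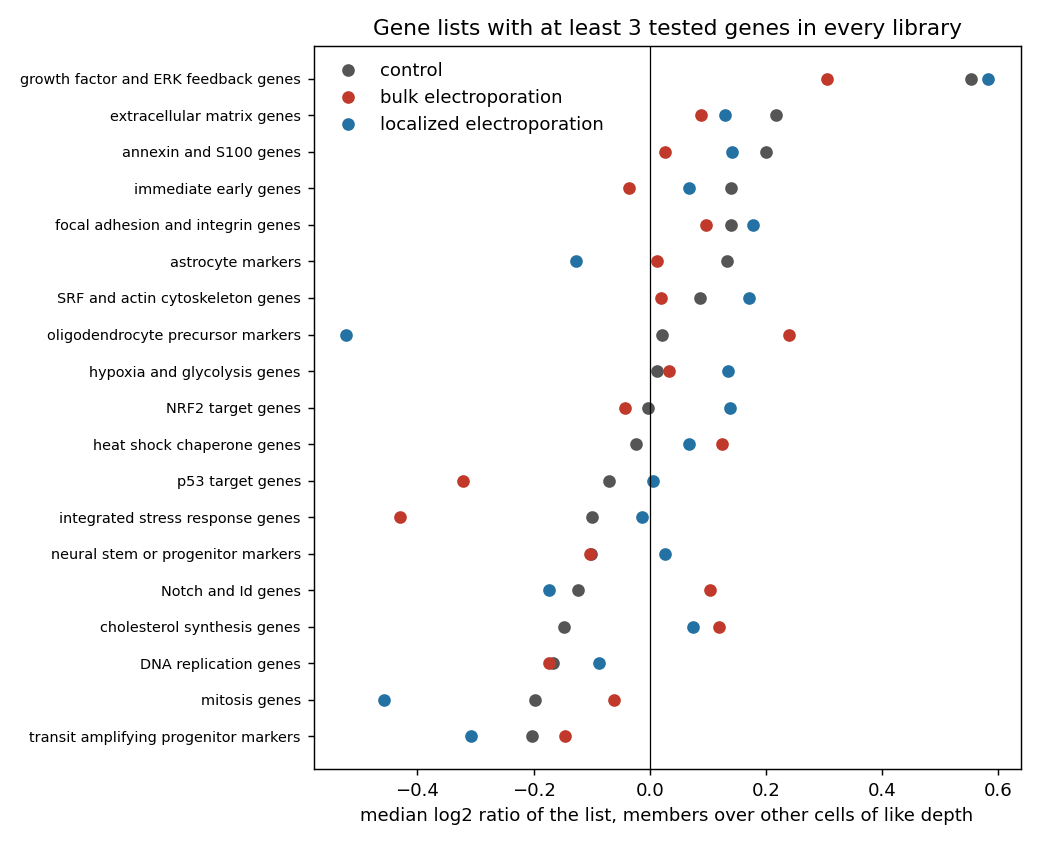
Median log2 ratio of members over other cells of like depth (horizontal axis) for each gene list with at least 3 tested genes in every library, with 1 point per library. The growth factor and ERK feedback list lies apart at 0.55, 0.31 and 0.58, while most medians lie within 0.2 of 0.

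Members were also compared between conditions, without a match on depth. Bulk members were the deepest, at a median of 17930 UMIs against 13448 in the control and 16406 in localized. Comparing bulk with control members, 36 of 5946 tested genes were at least 2-fold higher (0.605%) and 39 were at least 2-fold lower (0.656%). Localized against control gave 57 of 6038 higher (0.944%) and 61 lower (1.01%), and bulk against localized gave 65 of 6100 higher (1.07%) and 46 lower (0.754%). Without cells above 25000 UMIs, 14 genes were higher for bulk over control and 33 for bulk over localized. The first and second of these comparisons share the control members. Below, ratios in members hold all members, while ratios in other cells come from cells weighted to the depth of the matched members. The 1 control, 12 bulk and 5 localized members without a match are thus in the member ratios only. With 1 library per condition, a difference between libraries and a difference between treatments cannot be told apart.

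Interferon response genes were high in bulk members. Cxcl10, a chemokine gene, stood at 686 CPM (671 to 702) in bulk members, 2.10 CPM (12 UMIs) in control members and 7.52 CPM (39 UMIs) in localized members. Isg15 stood at 335 CPM (324 to 345) in bulk against 1.23 and 1.93 CPM, and Rsad2, an antiviral enzyme gene, at 165 CPM (158 to 173) against 1.58 and 0.578 CPM. Oasl1 stood at 78.3 CPM in bulk and was at 0 UMIs in members of the other libraries, which allows up to 0.647 CPM in the control and 0.711 CPM in localized. Of 11 tested genes of the list, 11 were at least 2-fold higher in bulk than in control members, beside 0.605% of all tested genes. The median ratio was 5.46, beside 5.58 in other cells. Cxcl10 was detected after thinning in 32.7% of bulk members and in 42.2% of other bulk cells of like depth.

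Integrated stress response genes were high in control members. Ddit3, which encodes the stress factor CHOP, stood at 202 CPM (191 to 214) in control members, 29.2 (26.2 to 32.5) in bulk and 18.1 (14.6 to 22.2) in localized. Chac1, an enzyme that degrades glutathione, stood at 55.4, 11.5 and 1.74 CPM, and the mitochondrial folate enzyme gene Mthfd2 at 205, 106 and 42.6 CPM. Gdf15, a stress cytokine gene, stood at 96.6, 32.7 and 15.6 CPM. For each of the 4 genes the order was control, bulk, localized. Of 23 tested genes of the list, 16 were at least 2-fold lower in localized than in control members, beside 1.01% of all tested genes. The median was -1.41, beside -1.43 in other cells. In bulk 6 were at least 2-fold lower than in control members, beside 0.656% of all tested genes, with a median of -0.46 beside -0.10.

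Hmox1 and Apoe were at least 2-fold higher in localized members than in control members. Hmox1, the heme oxygenase gene, stood at 271 CPM (257 to 285) in localized, 63.1 (56.7 to 70.0) in control and 81.6 (76.4 to 86.9) in bulk members. The ratio of localized to control was 2.08 in members and 1.46 in other cells. Apoe stood at 310 CPM against 98.2 and 123 CPM, and S100a6, a calcium binding protein gene, at 73.9 CPM against 27.3 and 38.9 CPM. Id1, which blocks differentiation factors, stood at 246 CPM in localized, 135 in control and 66.4 in bulk members, and Hes5 at 85.0, 41.9 and 19.2 CPM in the same order. Both were lowest in bulk. Of 7 tested Notch and Id genes, 1 was at least 2-fold higher in localized than in control members (beside 0.944% of all tested genes), with a median of 0.83 beside 0.09 in other cells, and 4 were at least 2-fold lower in bulk than in control members (beside 0.656%).

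Bulk members had lower cholesterol synthesis genes than control members, as did other bulk cells. Msmo1, an enzyme of the pathway, stood at 93.9 CPM (88.4 to 99.6) in bulk members, 234 CPM (222 to 247) in the control and 202 CPM (190 to 215) in localized. The list median of bulk over control was -0.73 in members and -0.90 in other cells. The linker histone gene H1f0 and the p53 target Trp53inp1 were higher in bulk, at 206 and 54.8 CPM, than in control members, at 65.0 and 21.4 CPM. Of 15 tested p53 targets, 1 was at least 2-fold higher and 2 were at least 2-fold lower in bulk than in control members. Over all tested genes the shares were 0.605% and 0.656%. The p53 list had a median of 0.27 beside 0.42 in other cells. The growth factor and ERK feedback list differed little between members of different libraries, with medians of -0.13 for bulk over control and -0.17 for localized over control, beside 0.06 and -0.16 in other cells.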

How the data were processed

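Droplet 3' single-cell RNA was measured in 3 libraries, 1 for each of control, bulk and localized electroporation. The authors deposited raw UMI counts per gene and barcode, 32285 genes, as matrices of all barcodes. The submitters' processing notes name Cell Ranger 6, Seurat 4.0.4 and GRCm38, while the matrix header names Cell Ranger 4, and the annotation release is not given in the sources used here. No doublet caller was applied, so doublets remain. Files held 74429007 (control), 85743257 (bulk) and 83803032 (localized) UMIs.

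Members were compared with other cells of the same library, weighted within bins of 0.05 in log10 UMIs. Counts were summed per library, scaled to CPM and compared as log2(CPM + 1), with Python 3.11.15, numpy 2.4.6 and scipy 1.17.1, tested on simulated data. Genes of at least 20 CPM in either group were tested and called at 2-fold, and the 8 genes of the rule were left out of these counts and of all lists. With 1 library per group no p-value was computed. Interval bounds and floors cover counting error only.

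The members and the 30 gene lists were chosen with earlier results of these data known. The 15 highest and 15 lowest genes were ranked by their weakest ratio over the 3 libraries among genes of at least 20 CPM in each. For each treatment ratio the 8 highest and 8 lowest of at least 50 CPM qualified, with up to 4 genes per list by largest median ratio. Predicted and ribosomal protein genes were left out, and a few genes that these rules name are not reported here. Other genes of a list given with values were chosen after their values were seen. Alternatives changed the rule, the cell filters, the depth match, the scaling, the pseudocount and the minimum level. Weighting to pooled UMIs and reading each gene in cells with 4 of the other 7 were added after the data were seen.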

Additional observations from a re-analysis of the deposited data

Results flagged for a closer look

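The ratio of members to other cells of like depth differed between libraries for 3 genes past 2-fold in one library and on the other side of 0 in another. These differences were not tested, since each condition has 1 library. Ddit3 had a log2 ratio of -1.09 in bulk, at 28.4 against 61.4 CPM, and 0.09 in localized. Rsad2 had -1.05 in bulk and 0.47 in the control, where members held 9 UMIs of this gene in all. Sox10 had -1.91 in localized and 0.02 in bulk, where both groups stood near 3.3 CPM.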

How the results depend on the processing

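No paired analysis was possible because each group has 1 library. For the same reason no replicate could be left out. The member share with at least 4 of 8 genes was 14.5% in the control, 18.4% in bulk and 11.7% in localized, and with at least 6 of 8 it was 1.81%, 3.18% and 1.44%. With a cell minimum set per library from its deepest cells, the bulk share was 9.10%. Without cells above 25000 UMIs it was 5.82% in bulk and 3.82% in localized. Thinning to 3000 UMIs gave 0.0985%, 0.0723% and 0.0159%, and to 6000 UMIs 1.37%, 0.873% and 0.517%. The rule on 1 of 2 equal random parts of the UMIs gave 1.12%, 2.08% and 0.762%, and weighting to pooled UMIs 8.83% in the control and 6.01% in bulk.

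The count of genes 2-fold higher in all 3 libraries, 0 as reported, became 3 with at least 6 of 8 (Nptx1, Trib1 and Apln), 3 without cells above 25000 UMIs (Rasl11a, Dusp6 and Trib1), 3 on a random part of the UMIs (Rasl11a, Trib1 and Apln), 2 with bins of 0.02 (Rasl11a and Apln), 1 when Ier3 and Klf10 were left out of the rule (Apln) and 3 with no minimum level (Kcnc4, Fgf1 and Apln). The count of genes 2-fold lower became 1 without depth matching (Lhfpl3) and 2 with no minimum level, Lhfpl3 among them.

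Between conditions, at least 6 of 8 gave 98 higher and 59 lower for bulk over control and 114 higher for localized over control. Without cells above 25000 UMIs, 14 were higher for bulk over control, and 33 higher and 30 lower for bulk over localized. A pseudocount of 5 CPM gave 36 higher for localized over control and 29 lower for bulk over localized. A minimum of 50 CPM gave 14 higher and 20 lower, 19 and 30, and 25 and 22 for the 3 comparisons, and no minimum 237 and 93, 372 and 167, and 230 and 206. Of 4941 values of single reported genes under alternatives, 528 were of ratios past 2-fold, of which 526 had the same direction and 432 stayed past 2-fold. These values include the 8 genes of the rule, which are high in members by choice, so this agreement is partly set by the rule. The 2 that reversed were Atf3 in localized (0.23) with at least 4 of 8 and Rsad2 in bulk (0.41) without depth matching. The cause was not tested for any of these. Gene counts after thinning to 3000 UMIs were not run, with 6, 4 and 1 members left.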

Other observations

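Apln, which encodes the peptide apelin, just missed the level minimum in the localized library and so stood outside the counts over all 3 libraries. It was picked after its values were seen. Its log2 ratios of members over other cells of like depth were 1.34 in the control, 1.37 in bulk and 1.21 in localized, at 30.2 CPM (25.8 to 35.1) against 11.3, 29.6 CPM (26.4 to 33.1) against 10.8 and 20.0 CPM (16.2 to 24.4) against 8.07. Nptx1, a secreted pentraxin gene related to Nptx2, had 1.14, 0.93 and 1.23, at 36.2, 18.3 and 24.9 CPM in members. The growth factor gene Fgf1 had 1.03, 1.18 and 1.09 on 105, 153 and 61 member UMIs, and the potassium channel gene Kcnc4 had 1.67, 1.04 and 1.48 on 34, 55 and 30 member UMIs. For all 4 genes the member intervals lay above the level in other cells in each library.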
